A study of Homo sapiens with 60 samples.

Results

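The genes of the collagen, laminin and integrin families and the fibronectin gene FN1 were followed in an astrocyte-derived cell line exposed to arsenic, cadmium or mercury. They were taken from the count table by name: protein-coding genes named COL with a number, A and a number, LAMA, LAMB or LAMC with a number, and ITGA or ITGB with a number or letter, without the ITGB1BP and ITGB3BP genes. This gave 84 of 62703 genes, 44 collagens, 12 laminins, 27 integrin-named genes and FN1. The rule uses names and gene type alone. Of the 84, 41 had enough counts to be tested, among 12341 genes tested in all.

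The cells were 1321N1, a human astrocytoma line that serves as a model of astrocytes. They were treated with 2.55 µM sodium metaarsenite (arsenic), 2.3 µM cadmium chloride (cadmium) or 20 µM mercury chloride (mercury), or were left non-treated, for 1.5, 3, 6, 12 or 24 h. RNA was sequenced from the 3′ end of transcripts, with 3 libraries in each of the 20 groups and 60 in all. All groups are 1 cell line in serum-containing medium, and the sample labels call the libraries technical triplicates, so that the p values cover the spread between these libraries and possibly not that between independent cultures.

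Collagens, laminins and fibronectin are secreted proteins that assemble into the extracellular matrix outside the cell. Fibrillar collagens such as type I form rope-like fibers, type IV and type VIII collagens form sheets or lattices, type VI collagen forms beaded filaments, and laminins build the basement membrane together with type IV collagen. Integrins are the cell surface receptors for these proteins. An alpha chain, which largely sets the ligand, pairs with a beta chain, and the pair links the matrix to the actin skeleton inside the cell. In the brain, matrix of this kind lies mainly in the basement membranes around blood vessels and at the brain surface, to which astrocytes attach through laminin-binding integrins, while fibrillar collagens are typical of connective tissue and of mesenchymal cells.

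Levels are given as CPM, the field's usual scaling of counts to a fixed library total, here after TMM normalization. Reads came from the 3′ ends, so CPM was not corrected for transcript length. Other differences between genes in how many reads a transcript yields were not tested, so CPM ranks genes only roughly. Libraries held 2215276 to 4404609 counts, and 3 counts corresponded to 0.680 to 1.36 CPM. Of the astrocyte markers, GFAP had 6 counts in all 60 libraries, S100B had 1, and AQP4 and ALDH1L1 had 0, whereas SOX9 averaged 78.7 and GJA1 19.1 CPM in non-treated cells. Of the 8 mesenchymal markers, vimentin (VIM) averaged 4422, S100A6 1065, N-cadherin (CDH2) 491 and THY1 121 CPM in non-treated cells. The others were lower, with S100A4 at 25.9, PDGFRB at 14.1, TAGLN at 3.32 and ACTA2 at 2.47 CPM. The leukocyte markers CD3E and TYROBP had 0 counts in every library, and the epithelial markers EPCAM and CDH1 had 7 and 39 in all, whereas the keratins KRT18 and KRT8 averaged 50.1 and 10.8 CPM in non-treated cells. At 24 h the summed level of the 8 mesenchymal markers was 5263 to 6020 CPM in non-treated, 4523 to 4673 in arsenic, 4642 to 6606 in cadmium and 4898 to 5232 in mercury libraries. That of the 10 astrocyte markers was 85.2 to 116, 55.4 to 58.4, 89.6 to 123 and 101 to 124 CPM in the same order. Both sums were thus lower in every arsenic library than in every non-treated library, and the mesenchymal sum also in every mercury library. The sum of the 5 epithelial markers was 62.7 to 65.6, 51.4 to 83.1, 64.3 to 89.6 and 88.1 to 96.9 CPM, higher in every mercury library. That of the 5 neuron markers was 10.7 to 16.1, 16.3 to 25.6, 8.85 to 17.2 and 15.8 to 24.1 CPM, higher in every arsenic library. That of the 5 leukocyte markers was at most 2.02 CPM in any of these libraries. The mesenchymal, astrocyte, epithelial and neuron sums are led by VIM, SOX9, KRT18 and SYT1. Singly, at an adjusted p under 0.05 (edgeR), 1 of 3 tested astrocyte and 3 of 8 mesenchymal markers fell with arsenic. With mercury 4 mesenchymal markers fell. Of 2 tested epithelial markers 1 rose and 1 fell with mercury. Of 2 neuron markers 0 changed with arsenic, and 1 rose more than 2-fold with mercury. The part of these cell types in the results was not tested, and in such bulk libraries fewer cells of a kind and less RNA per cell cannot be told apart.

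The most abundant of these genes were COL1A1, COL6A3, COL1A2, COL6A1 and COL11A1, which code for chains of fibrillar and type VI collagens. Over the 15 non-treated libraries, COL1A1, a chain of type I collagen, averaged 812 CPM and its partner COL1A2 401 CPM. COL6A3 followed COL1A1 with 545 CPM, and COL6A1 had 259 CPM. COL11A1, COL5A2 and COL5A1, chains of the minor fibrillar collagens that are built into type I fibrils, averaged 252, 178 and 105 CPM. COL8A1, a short-chain network collagen, averaged 188 CPM. The type IV collagens of basement membranes were low, with 17.6 CPM for COL4A1 and 25.7 CPM for COL4A2. COL27A1 and COL13A1, a transmembrane collagen, had 28.4 and 22.9 CPM, and COL6A2 had 41 CPM. FN1, whose product binds both collagen and integrins, averaged 218 CPM.

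A laminin is a trimer of an alpha, a beta and a gamma chain. LAMB1 (167 CPM) and LAMC1 (147 CPM) were the most abundant chains, and among alpha chains LAMA4 (60.5 CPM) lay above LAMA1 (22.7 CPM) and LAMA5 (7.89 CPM). LAMB2, the alternative beta chain, had 32.8 CPM. Of the integrins, ITGB1, the common beta chain, averaged 145 CPM and ITGB5, a partner of the alpha V chain, 130 CPM. The laminin receptor chains ITGA6 and ITGA3 had 113 and 85.5 CPM, and the fibronectin and vitronectin receptor chains ITGA5 and ITGAV 50.5 and 44.5 CPM. ITGAE, best known from lymphocytes, had 21.7 CPM, and ITGBL1, a secreted protein that resembles the stalk of an integrin beta chain and is not itself a receptor, 36.4 CPM. The remaining tested genes lay below 10 CPM. Among them were COL4A4, COL7A1, COL12A1, LAMA2, LAMB3, ITGA1, ITGA2, ITGA4, ITGA7, ITGA10, ITGB2 and ITGB8, from 1.60 CPM for ITGB2 to 9.91 CPM for ITGA4.

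The other 43 genes were not tested. Of these, 13 had 0 counts in all 60 libraries (9 collagens and 4 integrins), and the highest count of any of the other 30 in a library was 16. They were the fibrillar COL2A1, COL3A1, COL5A3, COL11A2 and COL24A1, the network collagens COL4A3, COL4A5, COL4A6, COL8A2 and COL10A1, and COL6A5, COL6A6 and COL28A1. Nearly all fibril-associated collagens were in this set (COL9A1, COL9A2, COL9A3, COL14A1, COL16A1, COL19A1, COL20A1, COL21A1 and COL22A1), with COL15A1, COL17A1, COL18A1, COL23A1, COL25A1 and COL26A1. So were LAMA3, LAMB4 and LAMC3, ITGA2B, ITGA8, ITGA9 and ITGA11, the leukocyte integrin chains ITGAD, ITGAL, ITGAM and ITGAX, and ITGB3, ITGB4, ITGB6 and ITGB7. COL3A1, which usually accompanies type I collagen in fibroblasts, had at most 2 counts in a library.

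Together the 84 genes took 0.460% ± 0.0057 (SD, n = 3) of all counts in non-treated cells at 1.5 h and 0.414% ± 0.031 at 24 h. The 24 h share was 0.310% ± 0.0057 in arsenic, 0.373% ± 0.024 in cadmium and 0.322% ± 0.015 in mercury libraries (SD, n = 3 each). Every arsenic and every mercury library lay below every non-treated library at that time, while the cadmium libraries overlapped with them. Collagens alone took 0.290% ± 0.025 in non-treated cells, 0.204% ± 0.0030 with arsenic and 0.204% ± 0.0068 with mercury. These shares were not tested, and they are led by the few genes with the highest counts.

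Metal and non-treated libraries were compared within each time point by edgeR's quasi-likelihood test, with Benjamini-Hochberg adjustment over all 12341 genes, and a gene is said to have changed at an adjusted p under 0.05. Differences are given as log2 fold change (LFC) with its standard error (SE). The comparisons of the 3 metals at a time point share their non-treated libraries. At 1.5 h no gene of these families changed with arsenic, cadmium or mercury, where 0.0729%, 0% and 0.567% of all genes did. At 3 h again none changed, against 0.138%, 0.203% and 1.55% of all genes. At 6 h none changed with arsenic (0.899% of all genes) or cadmium (2.05%). At an unadjusted p under 0.05 there were 5, 2 and 5 genes with arsenic at 1.5, 3 and 6 h, 3, 5 and 9 with cadmium, and 1 and 1 with mercury at 1.5 and 3 h. DESeq2 likewise called 0 in these 8 comparisons.

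Changes were late. With arsenic, 5 of 41 genes fell at 12 h, where 1.74% of all genes were called lower, and 15 fell at 24 h, where 7.75% were. A single gene, ITGAE, rose at 24 h, where 6.54% of all genes did. With mercury, 2 genes fell and 2 rose at 6 h (2.99% and 4.49% of all genes), and 5 fell and 4 rose at 12 h (7.16% and 8.90%). The counts at 6 h and the count of rises at 12 h are near these shares. At 24 h of mercury 13 fell and 3 rose, where 13.9% of all genes fell and another 13.9% rose. Cadmium changed few of them. COL6A3 rose at 12 h, where 5.19% of all genes were called higher, and COL11A1 and ITGBL1 fell at 24 h, where 0.616% were called lower. Beyond an LFC of 1 in size, 5 genes changed with arsenic and 4 with mercury at 24 h, all lower, against 3.31% and 7.46% of all genes in either direction. At 24 h the 41 genes had a median LFC of -0.30 (arsenic), -0.06 (cadmium) and -0.12 (mercury), and all tested genes had 0.00, -0.01 and -0.02.

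Over the 15 comparisons, 20 of the 41 genes changed at least once. Of these, 16 fell and 5 rose at some time, and LAMB1 did both. The share of all genes that changed at least once was not counted, and 27.8% of them changed at 24 h of mercury alone. Whether 20 of 41 is unusual therefore cannot be told from this count. Among the 27 genes that averaged 50 counts a library or more, 19 changed at least once, and the SE of their LFC was 0.085 to 0.26. Among the 14 with fewer counts only LAMA5 did, and with an SE of 0.31 to 0.71 a change of less than about 2-fold was mostly not detectable at this depth. In the plot of the changes over time, the fall is seen as a block of collagen rows at 12 and 24 h of arsenic and mercury.

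**Figure D1:**
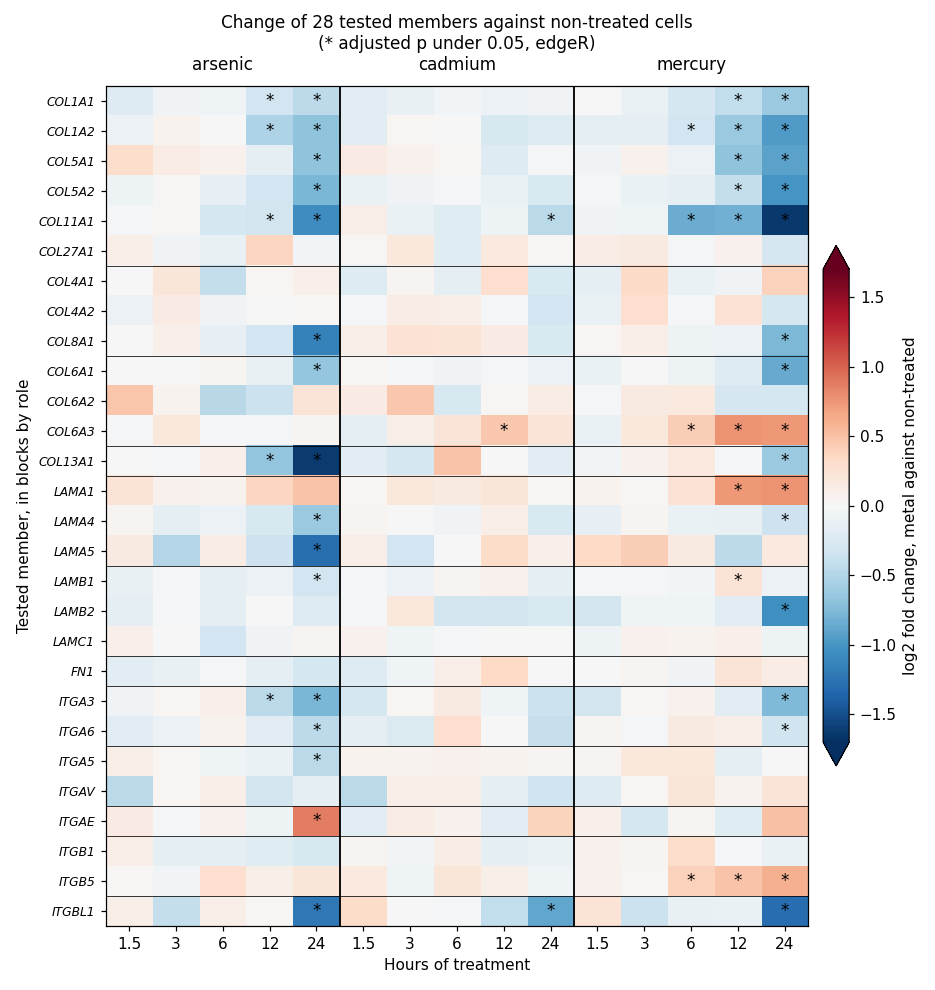
LFC of the 28 tested genes that averaged 50 counts a library or changed at least once (rows, grouped by role) against the non-treated libraries at that time, for each metal and hours of treatment (columns), with the color scale in log2 units. Asterisks mark an adjusted p under 0.05. They stand in 5 cells at 12 h and 16 at 24 h of arsenic, in 4, 9 and 16 cells at 6, 12 and 24 h of mercury, and in 1 and 2 cells at 12 and 24 h of cadmium.

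Of the 6 tested fibrillar collagens, 5 fell at 24 h with arsenic and the same 5 with mercury, and COL11A1 alone fell with cadmium. The shares of all genes called lower were 7.75% (arsenic), 13.9% (mercury) and 0.616% (cadmium). COL11A1 (chr1:102876467-103108872, minus strand) showed the largest fall of any gene of these families with mercury. Its non-treated libraries had 248, 269 and 259 CPM at 24 h. With mercury they had 87.9, 73.6 and 87 CPM, with arsenic 122, 123 and 127 CPM and with cadmium 183, 197 and 185 CPM. No library of any metal reached the lowest non-treated library, and the mercury libraries lay below all others. COL11A1 was 3.12-fold lower with mercury (LFC -1.64, SE 0.10, adjusted p = 8.70e-22), 2.09-fold lower with arsenic (LFC -1.06, SE 0.10, adjusted p = 1.08e-13) and 1.37-fold lower with cadmium (LFC -0.46, SE 0.09, adjusted p = 0.00135). The cadmium call was lost when only the 6 libraries compared were fitted (adjusted p = 0.0647).

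The fall of COL11A1 with mercury was already seen at 6 h, when the non-treated libraries had 249.5, 283 and 287 CPM and the mercury libraries 139, 152 and 167 CPM. All 3 mercury libraries were lower (LFC -0.84, SE 0.10, adjusted p = 3.66e-10). At 12 h, mercury libraries had 133, 124 and 122 CPM against 225, 188 and 250.5 CPM in non-treated cells (LFC -0.81, SE 0.10, adjusted p = 1.18e-09). With arsenic at 12 h the libraries had 181, 170.1 and 184 CPM, just below the lowest non-treated library (LFC -0.31, SE 0.10, adjusted p = 0.0445). That call was lost without non-treated replicate 1 or 3 or any arsenic library, with an adjusted p of up to 0.319 (without non-treated replicate 3).

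Both chains of type I collagen fell. COL1A1 (chr17:50184101-50201632, minus strand) had 781, 689.9 and 915 CPM in non-treated cells at 24 h, 588, 567 and 591 CPM with arsenic, 529.5, 508 and 497 CPM with mercury and 858, 817 and 618 CPM with cadmium. The arsenic and mercury libraries lay below the non-treated ones, and the cadmium libraries overlapped with them. The fall was 1.37-fold with arsenic (LFC -0.45, SE 0.10, adjusted p = 5.65e-04) and 1.55-fold with mercury (LFC -0.64, SE 0.10, adjusted p = 4.79e-07). COL1A2 (chr7:94394895-94431227, plus strand) had 449, 403 and 576 CPM in non-treated cells, 303, 319 and 268 CPM with arsenic, 256, 224 and 250.1 CPM with mercury and 446, 429 and 347 CPM with cadmium. The order of the groups was that of COL1A1, with falls of 1.60-fold (arsenic, LFC -0.68, SE 0.10, adjusted p = 8.76e-07) and 1.96-fold (mercury, LFC -0.97, SE 0.11, adjusted p = 2.22e-11).

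Type I collagen transcripts were lower at 12 h too. COL1A2 libraries had 254, 285 and 325 CPM with arsenic and 268, 279 and 252 CPM with mercury, all below the non-treated 414, 433 and 392 CPM (LFC -0.52, SE 0.10, adjusted p = 4.32e-04 with arsenic, LFC -0.63, SE 0.11, adjusted p = 4.66e-06 with mercury). COL1A2 with arsenic was the only arsenic call at 12 h that held under all 13 alternatives, which include leaving out each library. COL1A1 at 12 h fell with mercury (LFC -0.42, SE 0.10, adjusted p = 0.00118) and, less firmly, with arsenic (LFC -0.33, SE 0.10, adjusted p = 0.0401), where leaving out non-treated replicate 2 or 3 or arsenic replicate 1 or 2 ended the call (adjusted p up to 0.339, without non-treated replicate 2). At 6 h of mercury the COL1A2 libraries had 309.6, 236 and 345 CPM against 353, 374 and 391 CPM (LFC -0.33, SE 0.11, adjusted p = 0.0408), a call that was lost without any non-treated library and without mercury replicate 1 or 2 (adjusted p up to 0.446, without mercury replicate 2).

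The type V chains COL5A1 and COL5A2, which help to start type I fibrils, fell alongside. COL5A2 (chr2:189031898-189225312, minus strand) had 186, 157 and 219 CPM in non-treated cells at 24 h, 108, 103 and 117 CPM with arsenic and 95.1, 94.9 and 90.6 CPM with mercury. Neither group overlapped with the non-treated one, and the falls were 1.71-fold (LFC -0.78, SE 0.11, adjusted p = 2.45e-07) and 2.00-fold (LFC -1.0005, SE 0.12, adjusted p = 1.18e-10). The cadmium libraries, at 168, 185 and 113 CPM, spread over a wider range than the others. COL5A1, chosen for naming after its values were seen, had 125, 122 and 106 CPM in non-treated cells, 71.4, 70.4 and 77.5 CPM with arsenic (LFC -0.69, SE 0.15, adjusted p = 8.33e-04) and 51.2, 66.5 and 71.2 CPM with mercury (LFC -0.91, SE 0.16, adjusted p = 5.37e-06). Both also fell with mercury at 12 h (LFC -0.68, SE 0.16, adjusted p = 9.83e-04 for COL5A1, and LFC -0.40, SE 0.11, adjusted p = 0.00754 for COL5A2). The COL5A2 call at 12 h ended without non-treated replicate 2 (adjusted p = 0.0505). COL27A1, the remaining fibrillar collagen tested, had an LFC of -0.05, 0.02 and -0.28 with arsenic, cadmium and mercury at 24 h, with 95% intervals of -0.47 to 0.36, -0.40 to 0.43 and -0.70 to 0.14.

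**Figure D2:**
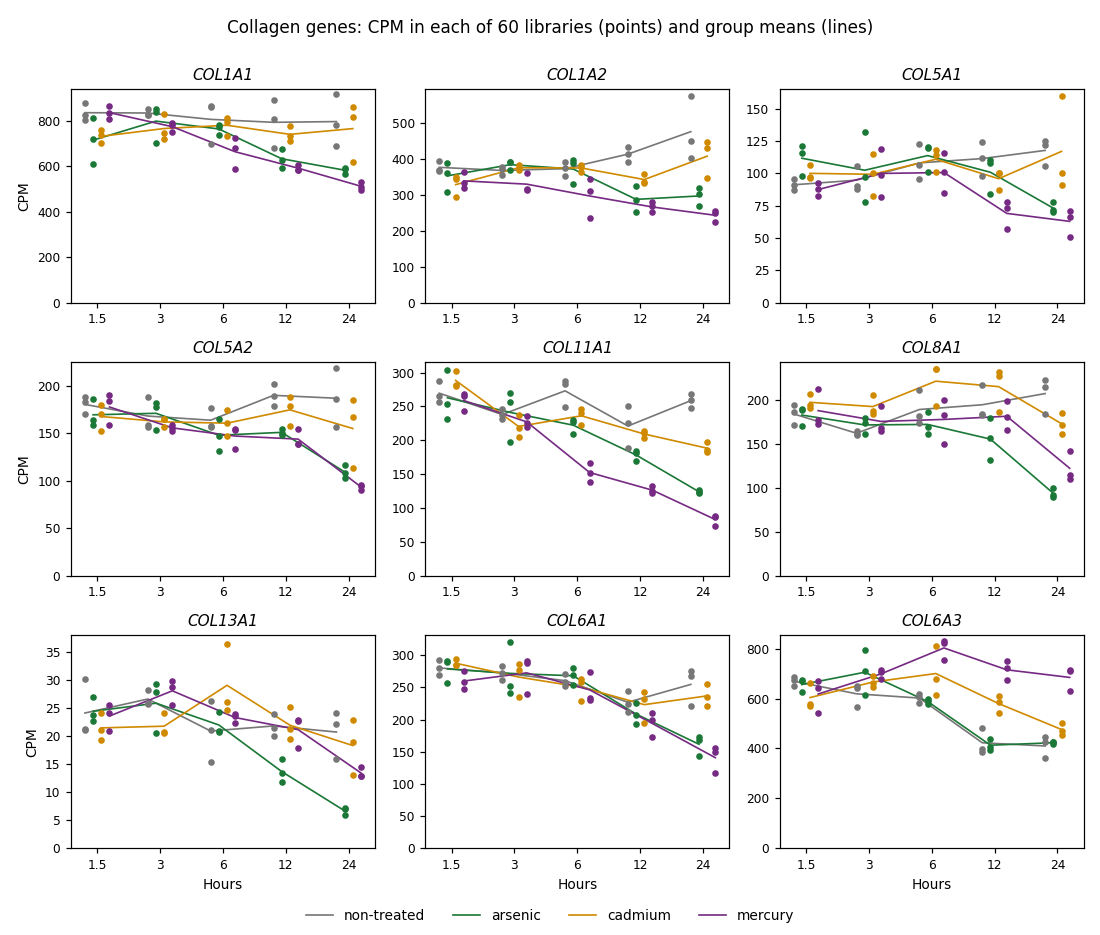
CPM of 9 collagen genes (vertical axes, each starting at 0) by hours of treatment (horizontal axes, equally spaced), with points for the 60 libraries and lines through the means of 3 libraries per group. For COL11A1, mercury libraries leave the others from 6 h on, and for COL6A3, non-treated and arsenic libraries fall between 6 and 12 h while mercury libraries do not fall as far.

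A network and a transmembrane collagen, COL8A1 and COL13A1, had larger falls with arsenic than with mercury. COL8A1 (chr3:99638475-99799226, plus strand) had 215, 223 and 185 CPM in non-treated cells at 24 h, 100.4, 89.5 and 91.7 CPM with arsenic, 110.5, 114 and 143 CPM with mercury and 172, 162 and 186 CPM with cadmium. Arsenic libraries were lowest and mercury libraries lay between them and the non-treated ones. The falls were 2.22-fold (LFC -1.15, SE 0.11, adjusted p = 1.40e-12) and 1.697-fold (LFC -0.76, SE 0.11, adjusted p = 1.02e-07). COL13A1 (chr10:69801880-69964275, plus strand) had 24.1, 15.9 and 22.2 CPM in non-treated cells, 7.01, 7.22 and 5.88 CPM with arsenic, 12.9, 12.98 and 14.5 CPM with mercury and 22.9, 13.1 and 18.99 CPM with cadmium. The arsenic libraries were the lowest of all 60 libraries for this gene, whose product sits in the cell membrane and is known from the neuromuscular junction. The 3.10-fold fall with arsenic (LFC -1.63, SE 0.22, adjusted p = 4.35e-08) was second in size only to that of COL11A1 with mercury among the calls of the 15 comparisons.

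COL13A1 also fell with mercury at 24 h (LFC -0.63, SE 0.20, adjusted p = 0.014), but leaving out non-treated replicate 1 or 3 or mercury replicate 1 or 2 ended that call (adjusted p up to 0.110, without non-treated replicate 1). At 12 h of arsenic its libraries had 15.95, 11.8 and 13.4 CPM against 20.1, 24.02 and 21.4 CPM (LFC -0.67, SE 0.20, adjusted p = 0.0352), and here leaving out any non-treated library or arsenic replicate 2 or 3 ended the call (adjusted p up to 0.188, without arsenic replicate 2). The type IV collagens did not pass the test in any of the 15 comparisons. At 24 h the LFC of COL4A1 was 0.08, -0.25 and 0.40 with arsenic, cadmium and mercury, and that of COL4A2 0.02, -0.32 and -0.30, with 95% intervals that all included 0. COL12A1, the only fibril-associated collagen with enough counts, had 4.62, 4.91 and 10.4 CPM in non-treated and 13.2, 14.8 and 6.09 CPM in cadmium libraries at 24 h. These groups overlapped, and the difference did not pass the test (LFC 0.80, SE 0.37, adjusted p = 0.332).

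The chains of type VI collagen moved apart. COL6A1 (chr21:45981770-46005050, plus strand) had 268, 275 and 221 CPM in non-treated cells at 24 h, 172, 144 and 168 CPM with arsenic and 155, 149.6 and 117 CPM with mercury. Both metals lay below the non-treated libraries, by 1.58-fold (LFC -0.66, SE 0.10, adjusted p = 1.97e-06) and 1.81-fold (LFC -0.85, SE 0.11, adjusted p = 1.23e-09). COL6A2, its neighbor on chromosome 21, had wide intervals, with an LFC of 0.22 with arsenic (95% interval -0.24 to 0.68) and -0.30 with mercury (95% interval -0.78 to 0.18).

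COL6A3 (chr2:237324003-237414328, minus strand), the largest chain of type VI collagen, was the only collagen that rose in the 15 comparisons. Its mercury libraries had 711, 712 and 629 CPM at 24 h, the non-treated libraries 444, 362 and 424 CPM, the arsenic libraries 419, 425 and 424 CPM and the cadmium libraries 469, 456 and 503 CPM. Mercury stood above all other groups, and arsenic lay within the range of the non-treated libraries. The rise with mercury was 1.67-fold (LFC 0.74, SE 0.09, adjusted p = 9.51e-10), whereas the LFC was 0.04 with arsenic (95% interval -0.14 to 0.23) and 0.21 with cadmium (adjusted p = 0.278). At 6 h, mercury libraries had 755, 821 and 831 CPM against 618, 605 and 582 CPM (LFC 0.42, SE 0.09, adjusted p = 8.19e-04). At 12 h they had 675, 721 and 749.5 CPM and the cadmium libraries 543, 609 and 588 CPM, all above the non-treated 398, 484 and 386 CPM (LFC 0.76, SE 0.09, adjusted p = 7.93e-10 with mercury, LFC 0.46, SE 0.09, adjusted p = 2.64e-04 with cadmium).

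The level of COL6A3 in the non-treated cells themselves fell with time. The 3 libraries had 651, 685 and 673 CPM at 1.5 h, all above those at 12 and 24 h, a fall of 1.58-fold by 12 h (LFC -0.66, SE 0.09, adjusted p = 1.08e-06) and of 1.63-fold by 24 h (LFC -0.71, SE 0.09, adjusted p = 1.05e-07). The 24 h mercury libraries thus overlapped with the non-treated libraries of 1.5 h.

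Promoters of 4 of these genes are shown. COL11A1 had the largest fall with mercury and COL13A1 the largest fall with arsenic. COL6A3 is the collagen that rose, and ITGB5 is an integrin that rose with mercury, chosen after its values were seen. These are not the 4 largest changes, as ITGBL1, LAMB2 and COL5A2 changed more with mercury at 24 h than COL6A3 and ITGB5. Each promoter shown runs 5′ to 3′ over 300 bases around the gene start of RefSeq on GRCh38.p14, and that start may not be the one used in these cells. For COL11A1, COL13A1 and COL6A3 it lies inside the gene as GENCODE annotates it. Capitals mark matches, on either strand, to 6 motifs. These are TATAAA, found near many start sites, and CCAAT, common upstream of them. Stress-related ones are TGCNCNC, a loose core of the metal response element, TGACNNNGC, the core of the antioxidant response element, TGATGCAA, known from amino acid response elements, and GAANNTTC, a pair of heat-shock units that reads alike on both strands. No matches overlap in the 4 sequences.
COL11A1, chr1:103108473-103108772, minus strand: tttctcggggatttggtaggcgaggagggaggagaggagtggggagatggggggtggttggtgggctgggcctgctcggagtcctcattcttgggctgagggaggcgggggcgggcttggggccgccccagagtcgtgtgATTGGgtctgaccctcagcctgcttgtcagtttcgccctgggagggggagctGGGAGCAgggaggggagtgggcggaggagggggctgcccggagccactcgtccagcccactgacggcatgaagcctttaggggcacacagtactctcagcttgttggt
COL13A1, chr10:69801656-69801955, plus strand: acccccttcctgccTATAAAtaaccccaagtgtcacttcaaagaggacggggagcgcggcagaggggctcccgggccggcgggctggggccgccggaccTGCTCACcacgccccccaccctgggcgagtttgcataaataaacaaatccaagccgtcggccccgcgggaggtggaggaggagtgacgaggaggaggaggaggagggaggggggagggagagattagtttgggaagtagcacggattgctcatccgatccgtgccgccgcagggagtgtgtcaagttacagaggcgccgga
COL6A3, chr2:237414115-237414414, minus strand: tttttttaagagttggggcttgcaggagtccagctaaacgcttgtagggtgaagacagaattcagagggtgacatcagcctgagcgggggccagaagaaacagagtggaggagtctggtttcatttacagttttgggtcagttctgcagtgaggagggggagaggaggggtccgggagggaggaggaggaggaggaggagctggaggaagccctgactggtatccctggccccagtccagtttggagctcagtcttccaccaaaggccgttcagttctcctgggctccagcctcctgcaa
ITGB5, chr3:124901369-124901668, minus strand: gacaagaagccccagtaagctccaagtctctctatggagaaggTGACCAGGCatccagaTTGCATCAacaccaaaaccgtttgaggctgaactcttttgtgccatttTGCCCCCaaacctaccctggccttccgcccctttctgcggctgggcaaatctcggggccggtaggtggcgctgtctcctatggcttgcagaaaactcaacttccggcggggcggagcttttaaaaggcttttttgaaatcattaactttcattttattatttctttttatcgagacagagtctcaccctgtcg

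COL11A1 held a reverse CCAAT and a reverse TGCNCNC, COL13A1 a TATAAA and a TGCNCNC, COL6A3 none of the letters searched, and ITGB5 a TGACNNNGC, a reverse TGATGCAA and a TGCNCNC. The promoter of ITGBL1, not shown, held none of them either. A promoter was at hand for 31 of the 41 tested genes. Of these, 4 held TATAAA, 6 CCAAT, 19 TGCNCNC, 3 TGACNNNGC, 1 TGATGCAA (ITGB5) and 2 GAANNTTC. Among all 35116 promoters the shares were 11.5%, 34.6%, 55.9%, 13.3%, 0.866% and 6.77%. A match is only a run of letters in this window, and its absence says nothing about the factor.

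Laminin chains changed in both directions. Of the 9 tested, 3 fell at 24 h with arsenic, 2 fell and 1 rose with mercury, and 0 changed with cadmium (1 at an unadjusted p under 0.05). Of all genes, 7.75% fell with arsenic, 13.9% fell and 13.9% rose with mercury, and 2.17% changed with cadmium. For only 9 genes, the mercury counts are close to these shares. LAMA4 (chr6:112107931-112254939, minus strand), the alpha chain of laminins of vessel walls and muscle, had 61.1, 57.03 and 52.4 CPM in non-treated cells at 24 h, 34.7, 41.3 and 34.4 CPM with arsenic, 52.4, 36.2 and 44.8 CPM with mercury and 46.3, 50.3 and 46.6 CPM with cadmium. Arsenic libraries lay clearly below the non-treated ones, with a 1.54-fold fall (LFC -0.63, SE 0.13, adjusted p = 1.47e-04). The highest mercury library reached the lowest non-treated one, and the mercury call (LFC -0.36, SE 0.12, adjusted p = 0.0234) was lost without non-treated replicate 1 or 2 and without mercury replicate 2 or 3 (adjusted p up to 0.267, without mercury replicate 2).

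LAMB1 (chr7:107923799-108003213, minus strand), the main beta chain, had 153, 139 and 149.9 CPM in non-treated cells and 119, 112 and 123 CPM with arsenic at 24 h. The groups did not overlap, but the fall was small, 1.25-fold (LFC -0.32, SE 0.09, adjusted p = 0.00638), and it was not called without arsenic replicate 2 or without the filter on low counts (adjusted p up to 0.0688). At 12 h of mercury LAMB1 changed the other way, from 148, 154 and 154 CPM to 166, 172 and 199 CPM (LFC 0.24, SE 0.09, adjusted p = 0.048), and this call was lost without any non-treated library and without mercury replicate 2 or 3 (adjusted p up to 0.319, without mercury replicate 3). LAMB2 (chr3:49121114-49133118, minus strand) fell with mercury. Its mercury libraries had 20.7, 15.1 and 19.4 CPM at 24 h, its non-treated libraries 44.2, 30.05 and 39.4 CPM, its arsenic libraries 38.7, 32.3 and 27.6 CPM and its cadmium libraries 24.9, 36.8 and 34.04 CPM. The mercury libraries lay below all of the others, with a 2.06-fold fall (LFC -1.04, SE 0.22, adjusted p = 1.23e-04). Direct tests of mercury against arsenic and cadmium are given with the comparisons between metals.

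LAMA5 (chr20:62307955-62367312, minus strand), the alpha chain of many epithelial and vessel basement membranes, was read at low counts. It had 13.4, 6.13 and 6.91 CPM in non-treated cells at 24 h and 3.003, 3.75 and 4.11 CPM with arsenic, so that the arsenic libraries were lower, yet 1 non-treated library stood far above the other 2. The call (LFC -1.28, SE 0.37, adjusted p = 0.0121) was lost without that library (LFC -0.84, adjusted p = 0.219) and without arsenic replicate 1. LAMA1 (chr18:6941742-7117797, minus strand), the alpha chain of early embryonic basement membranes, was described after its values were seen. It had 24.9, 17.5 and 17.8 CPM in non-treated, 32.96, 35.9 and 33.6 CPM in mercury, 27.7, 29.7 and 27.6 CPM in arsenic and 23.8, 20.8 and 16.8 CPM in cadmium libraries at 24 h. It rose 1.69-fold with mercury (LFC 0.76, SE 0.19, adjusted p = 0.00183), as at 12 h (LFC 0.74, SE 0.19, adjusted p = 0.00448), and the arsenic libraries, although all above the non-treated ones, did not pass the test (LFC 0.49, adjusted p = 0.086). LAMC1, the gamma chain of most laminins, did not pass the test, with 95% intervals of -0.18 to 0.28 (arsenic), -0.22 to 0.23 (cadmium) and -0.32 to 0.14 (mercury) for its LFC at 24 h.

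FN1 (chr2:215360440-215436073, minus strand) did not pass the test against non-treated cells with any metal at any time. At 24 h its libraries had 176, 129 and 193 CPM in non-treated cells, 138, 124 and 144 CPM with arsenic, 177, 192 and 129 CPM with cadmium and 201, 194 and 152 CPM with mercury. Each metal overlapped with the non-treated libraries, whereas all arsenic libraries lay below all mercury libraries. The LFC was -0.30 with arsenic (adjusted p = 0.141), 0.00 with cadmium and 0.13 with mercury, with 95% intervals of -0.57 to -0.03, -0.26 to 0.27 and -0.14 to 0.40. In non-treated cells, FN1 fell from 249.7, 293 and 265 CPM at 1.5 h (LFC -0.69, SE 0.13, adjusted p = 4.87e-04 for 24 h against 1.5 h).

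ITGA3 and ITGA6, laminin receptor chains, fell at 24 h with arsenic and mercury, and ITGA5, a fibronectin receptor chain, with arsenic. Of all genes, 7.75% fell with arsenic and 13.9% with mercury at that time. The laminin-binding ITGA7, read at low counts, and ITGAV did not pass the test in any of the 15 comparisons. ITGA3 (chr17:50055968-50090481, plus strand) had 83.7, 92.6 and 101 CPM in non-treated cells at 24 h, 62.4, 49.4 and 49.9 CPM with arsenic, 55.2, 59.3 and 50.8 CPM with mercury and 68.02, 67.7 and 80.3 CPM with cadmium. All metal libraries lay below the non-treated ones. The falls were 1.72-fold with arsenic (LFC -0.78, SE 0.12, adjusted p = 1.21e-06) and 1.67-fold with mercury (LFC -0.74, SE 0.12, adjusted p = 1.62e-06), and the LFC with cadmium, -0.36, did not pass the test (adjusted p = 0.0968). With arsenic, ITGA3 was lower at 12 h as well, at 50.1, 56.5 and 49.6 CPM against 73.9, 71.2 and 70.3 CPM (LFC -0.46, SE 0.12, adjusted p = 0.0137), and leaving out non-treated replicate 1 or arsenic replicate 1 or 3 ended that call (adjusted p up to 0.0820, without arsenic replicate 1).

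ITGA6 (chr2:172427354-172506459, plus strand), the other laminin receptor chain that fell, had 94.02, 114 and 109.9 CPM in non-treated cells, 82.4, 81.4 and 69.6 CPM with arsenic, 85.1, 83.5 and 82.7 CPM with mercury and 76.6, 91.7 and 73.1 CPM with cadmium. Every metal library was below every non-treated one. The fall passed the test with arsenic (LFC -0.44, SE 0.12, adjusted p = 0.00467) and mercury (LFC -0.34, SE 0.12, adjusted p = 0.0223) and missed it with cadmium (LFC -0.39, adjusted p = 0.0506). The arsenic call ended without arsenic replicate 3 (adjusted p = 0.0539), and the mercury call without non-treated or mercury replicate 2 or 3 (adjusted p up to 0.111, without non-treated replicate 2). ITGA5 (chr12:54395261-54419266, minus strand), the fibronectin receptor chain, had 32.7, 38.1 and 43.2 CPM with arsenic against 51.6, 55.5 and 50.6 CPM. The groups did not overlap (LFC -0.46, SE 0.15, adjusted p = 0.0206), but the call was lost without non-treated replicate 2 and without arsenic replicate 1 or 2 (adjusted p up to 0.137, without arsenic replicate 1). With mercury the ITGA5 libraries had 52.7, 53.8 and 50.4 CPM, within the range of the non-treated ones.

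ITGBL1 (chr13:101452593-101720856, plus strand) fell with all 3 metals at 24 h. It had 37.5, 42.3 and 38.8 CPM in non-treated cells, 13.7, 16.7 and 20.3 CPM with arsenic, 24.03, 19.7 and 20.1 CPM with cadmium and 19.1, 15.5 and 13.5 CPM with mercury. No metal library overlapped with the non-treated ones. The arsenic libraries overlapped with those of both other metals, and the cadmium libraries lay above the mercury libraries. Arsenic lowered it 2.33-fold (LFC -1.22, SE 0.17, adjusted p = 3.61e-08), and the fall was 1.84-fold with cadmium (LFC -0.88, SE 0.16, adjusted p = 1.20e-04) and 2.46-fold with mercury (LFC -1.297, SE 0.17, adjusted p = 4.06e-09). All 3 calls held under every alternative.

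Other integrin chains rose, ITGAE with arsenic and ITGB5 with mercury. ITGAE (chr17:3714628-3801188, minus strand) was the only gene that rose with arsenic, with 27.7, 28.9 and 32.3 CPM against 17.98, 12.6 and 17.8 CPM at 24 h, all 3 libraries higher (LFC 0.87, SE 0.22, adjusted p = 0.00315). Non-treated libraries at the earlier times had 16.7 to 34.5 CPM, so that the 24 h level of non-treated cells was low and the arsenic level lay within the range of the earlier ones. ITGB5 (chr3:124761948-124901418, minus strand), described after its values were seen, rose with mercury. It had 195, 174 and 181 CPM with mercury, 122, 126 and 115 CPM in non-treated cells, 131, 139 and 148 CPM with arsenic and 123, 114 and 107 CPM with cadmium at 24 h. The mercury libraries were above all others, with a rise of 1.52-fold (LFC 0.60, SE 0.10, adjusted p = 5.72e-06). It was also higher at 12 h (LFC 0.48, SE 0.10, adjusted p = 4.18e-04) and 6 h (LFC 0.39, SE 0.11, adjusted p = 0.0111), although at 6 h leaving out non-treated replicate 1 or 2 or mercury replicate 2 ended the call (adjusted p up to 0.0619, without non-treated replicate 1).

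ITGB1 (chr10:32887273-33005792, minus strand), which pairs with most of the alpha chains named here, did not pass the test at any time. At 24 h it had 139, 134 and 128 CPM in non-treated cells, 125, 102 and 105 CPM with arsenic, 114, 115 and 144 CPM with cadmium and 114, 135 and 120.3 CPM with mercury. The arsenic libraries were all below the non-treated ones, with an LFC of -0.27 (95% interval -0.50 to -0.04, adjusted p = 0.105). ITGA2, the collagen receptor chain with the most counts, had 6.68, 1.84 and 9.496 CPM in non-treated cells and 8.48, 5.56 and 10.9 CPM with mercury, and at such counts its 95% interval for mercury ran from -0.39 to 1.29.

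**Figure D3:**
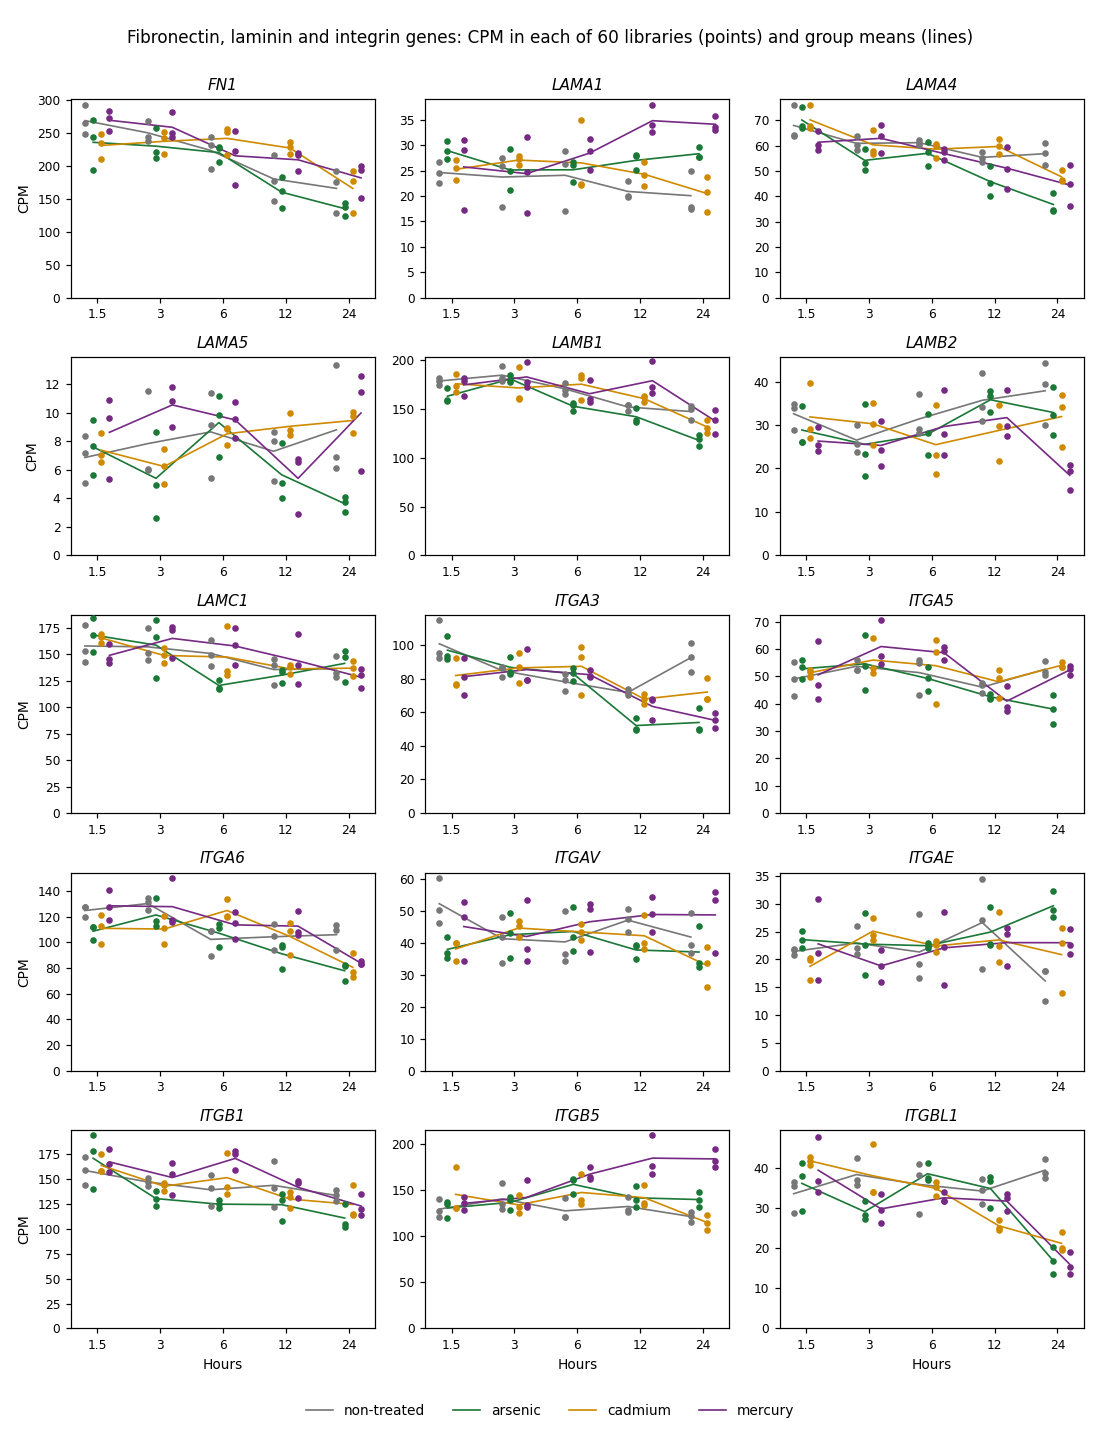
CPM of FN1 and of laminin and integrin-named genes (vertical axes, each starting at 0) by hours of treatment (horizontal axes, equally spaced). Points are the 60 libraries and lines run through the means of 3 libraries per group. ITGBL1 is lower with all 3 metals at 24 h, ITGB5 and LAMA1 are higher with mercury at 12 and 24 h, and the LAMC1 groups overlap at 24 h.

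At 24 h, the arsenic and non-treated libraries did not overlap for 20 of the 41 genes, where 27.5% of all tested genes did not, and the mercury and non-treated libraries for 17 of the 41, where 37.9% did not. All 16 genes called with arsenic and 15 of the 16 called with mercury were among them, which largely follows from the call. Of these calls, 12 with arsenic and 13 with mercury held under every alternative. Over the 15 comparisons 37 of 53 calls held under every alternative. Those that did not are named above, mostly with the libraries whose removal ended them. Library totals also ended COL11A1 and COL1A1 at 12 h of arsenic, and ITGB5 at 6 h and LAMB1 at 12 h of mercury. A fit of only the groups compared ended COL11A1, COL13A1 and COL1A1 at 12 h and LAMB1, ITGA5 and LAMA5 at 24 h of arsenic. With mercury that fit ended COL1A2 at 6 h, LAMB1 at 12 h, and LAMA4 and COL13A1 at 24 h. DESeq2's size factors ended COL1A2 at 6 h of mercury, and several calls were lost without the filter.

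**Figure D4:**
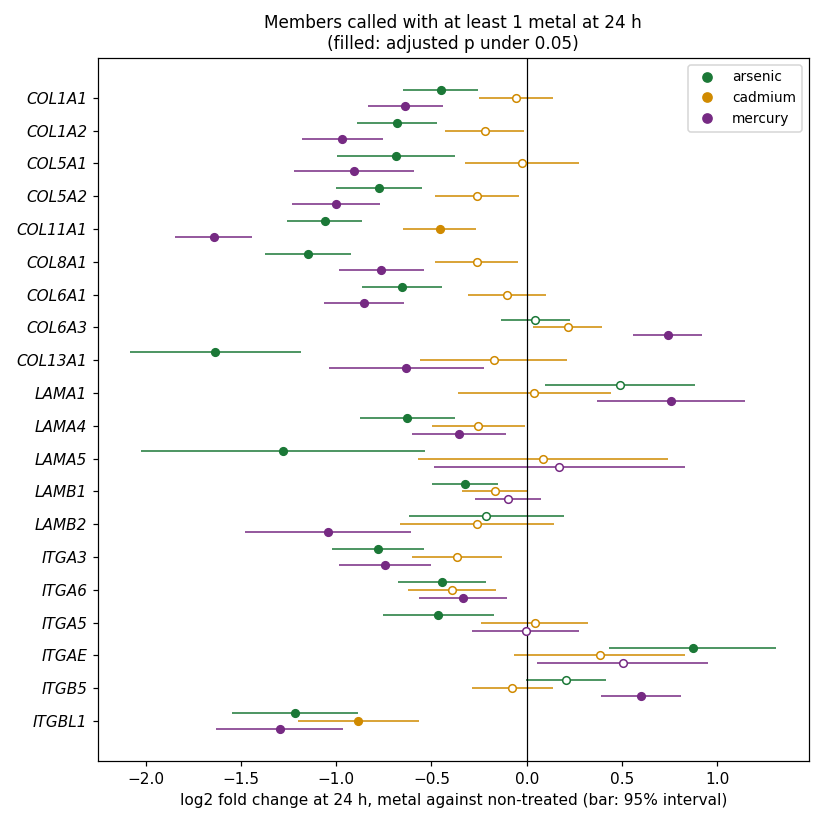
LFC at 24 h against non-treated cells (horizontal axis, log2 units) for the 20 genes called with at least 1 metal at 24 h, with bars for the 95% interval. Filled points have an adjusted p under 0.05. Most points of arsenic and mercury lie left of 0, COL6A3, LAMA1 and ITGB5 lie right of 0 for mercury, and those of cadmium lie nearest to 0 for most genes.

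The metals were also compared with each other. At 24 h, 12 of the 41 genes were lower with arsenic than with cadmium, where 5.97% of all genes were, and 0 were higher. They were COL1A1, COL1A2, COL5A1, COL5A2, COL11A1, COL8A1, COL6A1, COL13A1, LAMA4, LAMA5, ITGA3 and ITGA5, with LFCs from -0.37 for LAMA4 to -1.46 for COL13A1. Of these, COL1A2, COL11A1, COL6A1, COL8A1 and COL13A1 (5 genes) held under every alternative. The call of COL5A1 was lost without cadmium replicate 3 (adjusted p = 0.1302), that of COL1A1 without cadmium replicate 1 (0.0672), and those of ITGA5 and LAMA5 without arsenic replicate 1 (0.111 and 0.0505). ITGA3 was lost without arsenic replicate 2 or 3 or cadmium replicate 3 (adjusted p up to 0.133), LAMA4 without arsenic replicate 1 or 3, any cadmium library or the filter on low counts (up to 0.226), and COL5A2 when only the libraries compared were fitted (0.0638). Mercury differed from cadmium in 13 genes. COL1A1, COL1A2, COL5A1, COL5A2, COL11A1, COL8A1, COL6A1, LAMB2 and ITGA3 were lower with mercury (9.70% of all genes), by up to 1.19 on the log2 scale for COL11A1 (LFC 1.19, SE 0.10, adjusted p = 9.59e-15, cadmium over mercury), and COL6A3, LAMA1, ITGAV and ITGB5 were higher with mercury (10.3%). The call of LAMB2 was lost without replicate 2 of either metal (adjusted p up to 0.0666), and those of ITGAV and ITGA3 without cadmium replicate 3 (0.129 and 0.148), without mercury replicate 1 and, in turn, without mercury replicate 2 for ITGAV and 3 for ITGA3.

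Arsenic and mercury each lowered 8 of the 16 tested collagens at 24 h, where 7.75% and 13.9% of all genes fell. They also differed from each other at that time. COL11A1 and LAMB2 were higher with arsenic than with mercury (4.59% of all genes), at LFC 0.58, SE 0.10, adjusted p = 3.03e-05 and LFC 0.83, SE 0.22, adjusted p = 0.00694. In 8 genes arsenic was lower (6.78%), with COL13A1 (LFC -1.002, SE 0.24, adjusted p = 0.0021), COL8A1, COL6A3, FN1, LAMA5, ITGA5 and ITGB5 among them. COL11A1, COL13A1, COL6A3, LAMA5 and ITGB5 held under every alternative, and the other 5 calls did not. LAMB2 was lost without arsenic replicate 1 or mercury replicate 2 (adjusted p up to 0.0703), and COL8A1 without arsenic replicate 2 or 3 or mercury replicate 3 (0.216). FN1 and ITGA5 were lost without replicate 1 or 2 of either metal (up to 0.147 and 0.176). For COL1A1, COL1A2, COL5A1, COL5A2, COL6A1, LAMA4, ITGA3, ITGA6 and ITGBL1 the direct test did not separate arsenic from mercury, and the 95% intervals of the difference were 0.08 to 0.50 for COL1A2 and -0.29 to 0.45 for ITGBL1.

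At 12 h, arsenic was lower than cadmium in COL6A3, COL13A1, COL8A1 and FN1 (3.87% of all genes), of which COL6A3 held under every alternative (LFC -0.49, SE 0.09, adjusted p = 1.09e-04). FN1 was lost without arsenic replicate 1 or cadmium replicate 2 (adjusted p up to 0.149), COL8A1 without arsenic replicate 3 (0.0581), and COL13A1 without arsenic replicate 2 or 3 or cadmium replicate 1 or 3 (0.200). Arsenic was above mercury in COL11A1 and COL5A1 (2.53%) and below it in COL6A3, COL13A1, LAMB1 and ITGB5 (4.42%), of which COL11A1 (LFC 0.50, SE 0.10, adjusted p = 2.97e-04) and COL6A3 (LFC -0.79, SE 0.09, adjusted p = 7.91e-10) held. Here COL5A1 was lost without replicate 1 or 2 of either metal (adjusted p up to 0.170), COL13A1 without replicate 2 or 3 of either metal (0.182), LAMB1 without arsenic replicate 1 or mercury replicate 3 (0.111), and ITGB5 without arsenic replicate 1 or 3 or mercury replicate 2 (0.169). Cadmium was above mercury in COL11A1 and COL1A2 (1.48%) and below it in COL6A3 and ITGB5 (1.81%), and COL11A1 held (LFC 0.73, SE 0.10, adjusted p = 2.58e-07). COL1A2 was lost without any of the 6 libraries (adjusted p up to 0.197), COL6A3 without any but mercury replicate 1 (0.198), and ITGB5 without cadmium replicate 2 or 3 or mercury replicate 2 (0.284).

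Whether the change grew from 12 to 24 h was tested as a difference of differences. It became more negative for COL11A1, COL8A1, COL6A1 and ITGBL1, with arsenic (0.899% of all genes) and with mercury (0.324%). The shift was -0.75 and -0.83 for COL11A1, -0.82 and -0.66 for COL8A1, -0.53 and -0.63 for COL6A1 and -1.24 and -1.18 for ITGBL1 on the log2 scale. The call of COL6A1 with arsenic was lost in 9 of 19 alternatives (adjusted p up to 0.164, without arsenic 24 h replicate 2), and with mercury those of COL8A1 in 8 (up to 0.114, without mercury 12 h replicate 3) and COL6A1 in 6 (up to 0.123, without mercury 24 h replicate 3). With cadmium 0 genes shifted (0.381% of all genes), and 7 did at an unadjusted p under 0.05, with 0 called by DESeq2. For ITGBL1 the non-treated libraries had 37.4, 31.1 and 34.5 CPM and the arsenic libraries 36.9, 30.1 and 37.8 CPM at 12 h, and they overlapped, unlike at 24 h.

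Without metal, few of these genes changed. Against 1.5 h, 0 of 41 changed in non-treated cells at 3 h (0.122% of all genes) and at 6 h (0.486%), with 2 and 5 at an unadjusted p under 0.05 and 0 by DESeq2. At 12 h, 3 were lower (1.75% of all genes), FN1, COL6A3 and ITGA3, and at 24 h FN1 and COL6A3 were (1.45%). ITGA3 had 115, 94.95 and 92.5 CPM at 1.5 h and 73.9, 71.2 and 70.3 CPM at 12 h (LFC -0.49, SE 0.12, adjusted p = 0.00833), a call that was lost without non-treated replicate 1 of 1.5 h (adjusted p = 0.120), as was that of FN1 at 12 h without non-treated replicate 1 of 12 h (adjusted p = 0.112).

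Genes that act with these families were counted from lists drawn up by their known function. Of 28 tested genes of collagen folding, modification and secretion, 2 rose and 3 fell with arsenic at 24 h, 2 rose and 1 fell with cadmium, and 8 rose and 6 fell with mercury, where 14.3%, 2.17% and 27.8% of all genes changed in either direction. SERPINH1, the collagen chaperone HSP47 of the endoplasmic reticulum, rose with all 3 metals. Its level was 176 ± 10.1 CPM (SD, n = 3) without metal, 305 ± 34.6 with arsenic (LFC 0.80, SE 0.11, adjusted p = 3.23e-08), 235 ± 14.2 with cadmium (LFC 0.42, SE 0.11, adjusted p = 0.0175) and 409 ± 48.0 with mercury (LFC 1.22, SE 0.11, adjusted p = 7.09e-15). LOXL3, which crosslinks collagen and elastin, fell with arsenic (LFC -0.68, SE 0.14, adjusted p = 2.92e-04) and MIA3, which helps to load procollagen into transport carriers, rose (LFC 0.63, SE 0.17, adjusted p = 0.00693). With cadmium, LOXL2 fell (LFC -0.55, SE 0.15, adjusted p = 0.0257) and the lysyl hydroxylase PLOD2 rose (LFC 0.54, SE 0.15, adjusted p = 0.0284). With mercury, P3H4, a partner of collagen-modifying enzymes, fell (LFC -1.38, SE 0.20, adjusted p = 5.37e-08) and the crosslinking enzyme LOX rose (LFC 0.65, SE 0.12, adjusted p = 2.56e-05).

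Of 19 other matrix proteins, 0 rose and 5 fell with arsenic, 2 rose and 8 fell with mercury, and 0 changed with cadmium (3 at an unadjusted p under 0.05). Of all genes at 24 h, 6.54% rose and 7.75% fell with arsenic, 13.9% rose and 13.9% fell with mercury, and 2.17% changed with cadmium. FBN1, the main protein of microfibrils, fell from 128 ± 19.6 CPM to 55.0 ± 1.24 with arsenic (LFC -1.22, SE 0.13, adjusted p = 8.24e-12) and to 57.1 ± 8.29 with mercury (LFC -1.17, SE 0.13, adjusted p = 1.55e-11). The laminin receptor dystroglycan, DAG1 (LFC -0.81, SE 0.12, adjusted p = 5.99e-07 with arsenic, LFC -0.85, SE 0.12, adjusted p = 1.16e-07 with mercury), and the collagen-binding SPARC (LFC -0.50, SE 0.11, adjusted p = 6.17e-04 with arsenic, LFC -0.71, SE 0.11, adjusted p = 5.13e-07 with mercury) fell too. The 3 with the smallest p with cadmium, DAG1, EFEMP2 and FBN1, had LFCs of -0.29, -0.50 and -0.25, none past the test.

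Of 22 matrix proteases and inhibitors, 7 rose and 3 fell with arsenic, 5 rose with cadmium, and 9 rose and 1 fell with mercury. Among all genes at 24 h, 6.54% rose and 7.75% fell with arsenic. The shares were 1.56% higher with cadmium, and 13.9% higher and 13.9% lower with mercury. The protease inhibitor SERPINE2 rose with all metals (LFC 0.59, SE 0.09, adjusted p = 3.57e-07 with arsenic, LFC 0.45, SE 0.09, adjusted p = 4.39e-04 with cadmium, LFC 0.92, SE 0.09, adjusted p = 1.11e-13 with mercury). The lysosomal protease CTSL rose with arsenic (LFC 1.096, SE 0.15, adjusted p = 5.62e-08). ADAMTS1, a secreted protease, went from 34.8 ± 4.77 CPM to 67.6 ± 12.99 with cadmium (LFC 0.97, SE 0.16, adjusted p = 3.35e-05) and 131 ± 6.89 with mercury (LFC 1.91, SE 0.16, adjusted p = 9.23e-16), and PLAUR, the urokinase receptor, from 118 ± 17.1 to 168 ± 12.97 with cadmium (LFC 0.50, SE 0.11, adjusted p = 0.0017) and 430.1 ± 35.9 with mercury (LFC 1.86, SE 0.10, adjusted p = 7.71e-24).

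Of 29 genes of the integrin adhesion complex inside the cell, 2 rose and 2 fell with arsenic, 1 rose with cadmium, and 6 rose and 6 fell with mercury. That is 13.8%, 3.45% and 41.4% of the list, against 14.3%, 2.17% and 27.8% of all genes at 24 h. The arsenic and cadmium counts are thus near the share of all genes. Vinculin (VCL), which ties integrins to actin, fell with arsenic (LFC -0.68, SE 0.10, adjusted p = 1.49e-07) and mercury (LFC -0.85, SE 0.10, adjusted p = 1.76e-10). With arsenic, KANK1 rose (LFC 0.95, SE 0.23, adjusted p = 0.00195) and BCAR1 fell (LFC -0.57, SE 0.18, adjusted p = 0.0195). With cadmium CSRP1 rose (LFC 0.60, SE 0.15, adjusted p = 0.0104), and FLNC and ZYX had LFCs of 0.72 and 0.35 that did not pass the test. With mercury LIMS1 (LFC 0.89, SE 0.13, adjusted p = 8.04e-08) and ZYX (LFC 0.61, SE 0.11, adjusted p = 2.39e-05) rose.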

How the data were processed

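The deposited table holds raw counts of reads per gene, not normalized, for all 60 libraries. To make these counts, the authors aligned 100-base single-end QuantSeq 3′ FWD reads to GRCh38 with STAR 2.7.9a and counted them by strand over GENCODE 43 genes with GenomicAlignments. Where a gene has several 3′ ends, counts sum them. None of the 41 tested genes shares its last 400 exonic bases with another gene of the same strand (0 of 41, by GENCODE 44). The 92 spike-in rows held 0 counts, and 0 count columns were left out.

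Groups were taken from the labels. Genes with too few counts were removed with filterByExpr (minimum count 10, minimum total 15), libraries were scaled by TMM, and 1 quasi-likelihood model of the 20 groups was fitted with edgeR 4.0.16 in R 4.3.3, with a common biological coefficient of variation of 0.120. Contrasts were the 15 of metal against non-treated cells, 6 between metals, 3 of the 24 h change against the 12 h change and 4 of non-treated cells over time. A call is a Benjamini-Hochberg adjusted p under 0.05 over all genes tested in a contrast, and SE is |LFC| divided by the square root of F. Scripts were tested on simulated data. Depth ran from 2215276 to 4404609 counts a library, and the 3 libraries of each group differed by more than counting noise (lowest chi-square per degree of freedom 2.00 over 60 pairs). The highest value was 13.2, for libraries 1 and 3 of cadmium at 6 h. At 24 h of cadmium the pairs with replicate 3 had 7.35 and 8.60, and the remaining pair had 2.67.

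Alternatives were DESeq2 1.42.0, its size factors, library totals, no filter, a filter at 50, a fit of only the groups compared, the replicate number as a block, and leaving out each library. Values in every library are given for FN1, for genes called beyond an LFC of 1 in size against non-treated cells, for the gene with the highest mean count in each role group, and for the 5 with the smallest p at 24 h of each metal, and companion genes are those with the 3 smallest p per list and metal at 24 h. COL5A1, LAMA1 and ITGB5 were added after their values were seen. Results of some genes are not reported here. The members and lists were chosen with earlier results of these data known.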

Additional observations from a re-analysis of the deposited data

Results flagged for a closer look

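The change against non-treated cells differed between 12 and 24 h, by a test of the difference itself, for 4 genes with arsenic and 4 with mercury. The 24 h change minus the 12 h change was -0.75 on the log2 scale for COL11A1 with arsenic (SE 0.14, adjusted p = 0.00122), -0.82 for COL8A1 (SE 0.16, adjusted p = 0.00198), -0.53 for COL6A1 (SE 0.15, adjusted p = 0.0406) and -1.24 for ITGBL1 (SE 0.23, adjusted p = 0.00122). With mercury it was -0.83 for COL11A1 (SE 0.14, adjusted p = 4.16e-04), -0.66 for COL8A1 (SE 0.16, adjusted p = 0.023), -0.63 for COL6A1 (SE 0.15, adjusted p = 0.023) and -1.18 for ITGBL1 (SE 0.23, adjusted p = 0.00271). All p values are from edgeR. Both metals were set against the same non-treated libraries. For ITGBL1, the 12 h libraries had 33.5, 32.6 and 29.4 CPM with mercury and 27.2, 24.6 and 25.2 CPM with cadmium, against 37.4, 31.1 and 34.5 CPM in non-treated cells. Groups of 3 libraries are too small to look for a library far from the others.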

How the results depend on the processing

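No call changed direction under any alternative. Counts of called genes stayed within 1.5 times of those reported, with these exceptions. Arsenic at 12 h had 5 calls, and 3 with library totals, 2 without the filter on low counts and 2 in a fit of only the groups compared. Cadmium at 12 h had 1, and 3 with library totals and 2 in the fit of only the groups compared, and at 24 h it had 2 against 1 in that fit. In the same fit, cadmium against mercury at 12 h went from 4 to 7 and arsenic against cadmium at 24 h from 12 to 7. DESeq2 gave 6 instead of 3 for non-treated cells at 12 h and 4 instead of 2 at 24 h. Leaving out each library in turn gave 2 to 3 calls for arsenic at 12 h and 14 to 16 at 24 h, 1 to 2 and 2 to 3 for cadmium, and 3 to 5, 7 to 9 and 13 to 15 for mercury at 6, 12 and 24 h. Between metals at 12 h the ranges were 2 to 4 (arsenic and cadmium), 3 to 5 (arsenic and mercury) and 1 to 3 (cadmium and mercury), and at 24 h 9 to 11, 6 to 11 and 11 to 13. For the 24 h against the 12 h change they were 3 to 4 (arsenic) and 2 to 4 (mercury), for non-treated cells 2 to 4 at 12 h and 2 to 3 at 24 h, and 0 to 0 elsewhere. The cause of these shifts was not tested. Samples that share a replicate number did not deviate together (45 pairs, median correlation -0.00799, 0 over 0.1). The lowest correlation was -0.278, for replicate 3 of cadmium at 24 h. With that number as a block, 16 genes were called for arsenic, 3 for cadmium (ITGA6 added) and 16 for mercury at 24 h. Another scaling moved the median LFC of all genes most with library totals at 6 h of mercury, by -0.08. Genes under 50 counts a library had an SE of 0.31 to 0.71, which limits what could be seen in them.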
